A study of Mus musculus with 16 samples.

Results

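The 7 genes described here, Smad1 to Smad7, encode the SMAD proteins that carry signals of the transforming growth factor β (TGF-β) superfamily from receptors at the cell surface to the nucleus. They were chosen by name, as members of the family, with earlier results of these data known, and were 7 of 25965 genes in a table of RNA levels of mouse oocytes. The RNA came from wild-type C57BL/6 oocytes (C57BL/6Babr in the study's methods) sorted by diameter into 4 classes, 10–30 μm, 40–45 μm, 50–55 μm and 60–65 μm, with 2 libraries (A and B) of each class. A further column held values for germinal vesicle (GV) oocytes, which are fully grown and still in meiotic arrest. DNA methylation was measured in the 3 larger classes, in 2 libraries each, by reduced representation bisulphite sequencing (RRBS), which reads mainly CpG-rich DNA, and in the 60–65 μm class in 1 library by post-bisulphite adaptor tagging (PBAT), which samples the whole genome. Mice were aged 5–7, 7–12, 9–14 and 13–16 post-natal days for the 4 size classes, from small to large, and 20 days for GV oocytes, so that age and diameter cannot be told apart. The study asked how the timing of transcription relates to the timing of de novo methylation in the growing oocyte.

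SMAD proteins fall into 3 kinds. The receptor-regulated SMADs are phosphorylated by the activated receptors: SMAD2 and SMAD3 act downstream of activin, TGF-β and GDF9 type ligands, and SMAD1, SMAD5 and SMAD9 downstream of bone morphogenetic proteins (BMPs). They enter the nucleus together with the common SMAD, SMAD4, while the inhibitory SMADs, SMAD6 and SMAD7, block the receptors and are themselves products of SMAD target genes. In the ovarian follicle the oocyte is best known as a source of such ligands, GDF9 and BMP15 among them, which act on the surrounding granulosa cells.

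RNA levels are given in RPKM, a read count divided by exon length and by the size of the library, so that genes can be compared per length, and every level is a share of its library's RNA. Libraries held 99369453 to 198298130 reads, as recovered from the values. The table resolved Smad6 and Smad7 to a few reads. Oocytes had been picked by hand and washed to remove somatic cells, and the 11 oocyte marker genes, Zp2 the highest, summed to 2696–3796 RPKM with none at 0 in any library. The 8 theca and stroma markers summed to 4.0 and 2.83 RPKM at 10–30 μm, 0.475–1.77 RPKM at 40–45 and 50–55 μm and 1.1 and 0.995 RPKM at 60–65 μm. The 11 granulosa cell markers went the other way, from 2.20 and 2.63 to 7.94 and 7.30 RPKM, with Nr5a2 the highest in each library, followed at 60–65 μm by Cyp19a1, which went from 0.161 and 0.159 to 1.25 and 1.04 RPKM. Inha, Kitl and Fshr also went up, to 0.542 and 0.528, 0.495 and 0.409, and 0.238 and 0.229 RPKM. Amh went from 0.0967 and 0.0907 to 0.2285 and 0.189 RPKM and Amhr2 from 0.0402 and 0.0471 to 0.0808 and 0.0773 RPKM. Foxl2 and Wt1 were at or below 0.0642 RPKM throughout, and Gatm and Hsd17b1 at or below 0.201 and 0.171 RPKM. The 4 endothelial markers went from 1.06 and 1.17 to 5.93 and 5.34 RPKM, led by Pecam1 (0.567 and 0.531 to 4.70 and 4.19 RPKM) and Tek (0.476 and 0.629 to 1.19 and 1.11 RPKM), with Kdr and Cdh5 at or below 0.0372 and 0.0101 RPKM in growing oocytes, and the 4 blood markers stayed at or below 0.410 RPKM. In such bulk samples, fewer cells of a type and less RNA per cell cannot be told apart. The letters A and B are the only sign of how replicates differ, so p-values measure the spread between these samples, which may be technical.

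Smad3 and Smad6 lie 195 kb apart on chromosome 9, on the same strand, and stood far apart in RNA level and in methylation of the gene body, so the 250 bases before each start are shown first (RefSeq, GRCm38.p6, minus strand, CpG sites in capitals). The Smad3 sequence is chr9:63757995-63758244 and the Smad6 sequence is chr9:64022060-64022309.
Smad3: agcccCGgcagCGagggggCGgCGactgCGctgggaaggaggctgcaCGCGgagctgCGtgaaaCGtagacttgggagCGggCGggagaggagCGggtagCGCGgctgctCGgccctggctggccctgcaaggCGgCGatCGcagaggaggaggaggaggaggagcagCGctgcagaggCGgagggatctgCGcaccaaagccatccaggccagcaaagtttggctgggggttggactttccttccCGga
Smad6: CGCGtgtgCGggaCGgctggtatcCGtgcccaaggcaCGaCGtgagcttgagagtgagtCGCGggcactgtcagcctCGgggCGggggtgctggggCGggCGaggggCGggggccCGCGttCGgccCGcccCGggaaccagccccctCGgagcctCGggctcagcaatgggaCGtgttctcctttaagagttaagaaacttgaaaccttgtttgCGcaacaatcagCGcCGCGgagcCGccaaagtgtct
The Smad3 stretch holds 22 CpG sites and the Smad6 stretch 27, against a median of 6 over 32851 RefSeq promoters of the same length, of which 14.8% held as many as Smad3 and 8.56% as many as Smad6. Both promoters are thus CpG-rich, and the CpG content does not set the transcribed Smad3 apart from the barely detected Smad6. Of the other members with a RefSeq promoter in the table used here, Smad1 had 25 CpG sites (10.7% of promoters had as many) and the 3 Smad5 starts had 22, 27 and 27.

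The SMADs of the activin and TGF-β branch were the abundant ones throughout growth, the BMP SMADs were several times lower, and the inhibitory SMADs were close to the limit of detection. At 10–30 μm the order of mean levels was Smad2, Smad4, Smad3, Smad5, Smad1, Smad7 and Smad6, with only Smad4 (6.67 and 9.17 RPKM) and Smad3 (6.12 and 8.18 RPKM) overlapping among neighbours. At 40–45 μm Smad3 stood second, again with a range that overlapped that of Smad4. From 50–55 μm onwards Smad3 was the highest of the 7, above Smad2 in both libraries at 50–55 μm and 60–65 μm and in the GV column. The place of Smad2 rests on a length of 3549 bases, while its annotated exons span 8781. Its levels under the other length were not determined. At 60–65 μm the remaining neighbours did not overlap, save Smad7 and Smad6. Among all genes of the table, Smad3 stood at percentiles 88.5 and 90.9 at 10–30 μm, 96.1 and 95.6 at 60–65 μm and 96.8 in GV oocytes, while Smad1 stayed between percentiles 67.6 and 69.3. Smad9, the remaining BMP SMAD and no member here, was at 0.0868–0.131 RPKM in all 9 columns.

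**Figure D1:**
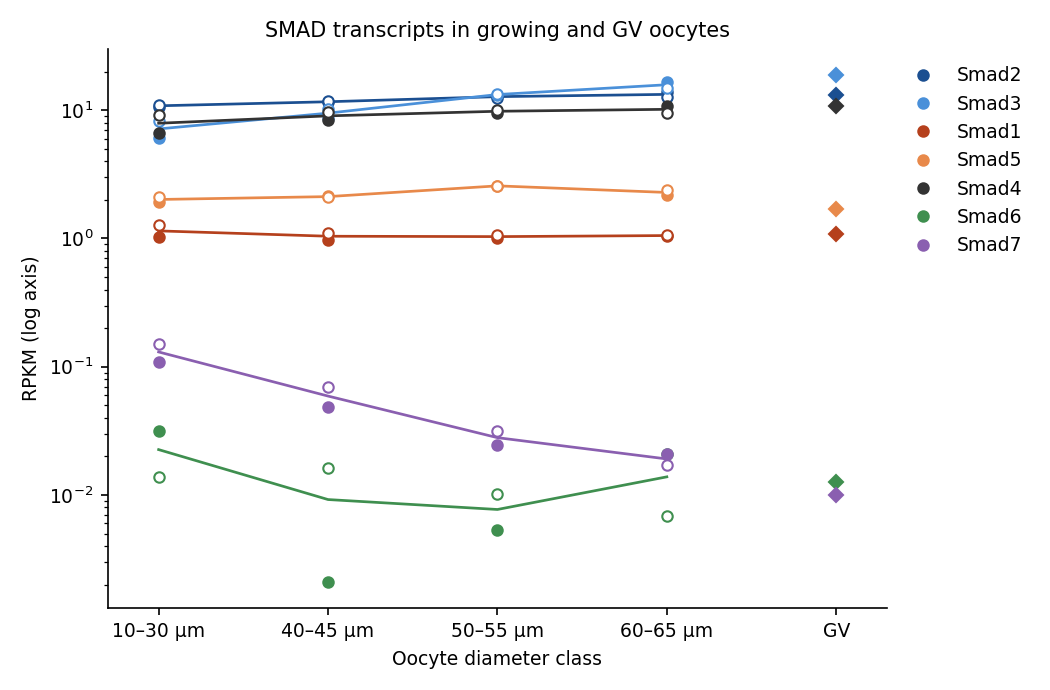
RNA level of the 7 SMAD genes in RPKM on a log axis, by diameter class (μm) and in GV oocytes, with filled (A) and open (B) circles for libraries, lines through the class means and diamonds for the GV column. Smad3 climbs from 7.15 to 15.8 RPKM and passes Smad2, whose place depends on the length used for it. Smad1 and Smad5 stay between 0.973 and 2.59 RPKM in growing oocytes, and Smad7 drops from 0.130 to 0.0191 RPKM.

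Smad3, which binds DNA directly and carries activin and TGF-β signals, had the largest change of the well-expressed members. Its level was 6.12 and 8.18 RPKM at 10–30 μm, 8.76 and 10.2 RPKM at 40–45 μm, 13.1 and 13.5 RPKM at 50–55 μm, 16.6 and 15.0 RPKM at 60–65 μm and 19 RPKM in GV oocytes. No class overlapped the next, and 3373 to 20841 reads stood behind each value. From 10–30 to 60–65 μm it rose 2.20-fold (95% interval 1.78–2.71, limma log2 fold change 1.14, SE 0.13, adjusted p = 0.000141). The rise from 10–30 to 40–45 μm was 1.39-fold (limma, log2 fold change 0.47, SE 0.13, adjusted p = 0.0345), and this call held in 7 of 17 alternative settings. From 40–45 to 50–55 μm the log2 fold change was 0.44 and did not pass the threshold of 0.05 (limma adjusted p = 0.0689). It passed in 3 of 17 alternative settings, with the replicate letter as a block (limma adjusted p = 0.0367) and without the A or the B library of 10–30 μm (0.0230 and 0.0253). From 50–55 to 60–65 μm it was 0.22 (limma adjusted p = 0.510), and passed in 0 of 17. The call over the whole of growth held in 17 of 17 alternative settings, with log2 fold changes of 0.98–1.29. The granulosa and endothelial marker sums given above moved in the same direction as Smad3, and their part in the result was not tested.

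Smad2, the partner of SMAD3 in the same branch, changed much less. It was at 10.6 and 11 RPKM at 10–30 μm, 11.5 and 11.8 RPKM at 40–45 μm, 13 and 12.5 RPKM at 50–55 μm, 13.8 and 12.8 RPKM at 60–65 μm and 13.1 RPKM in GV oocytes. The 60–65 μm libraries lay above both 10–30 μm libraries but overlapped those of 50–55 μm. From 10–30 to 60–65 μm Smad2 rose 1.22-fold (95% interval 1.06–1.40, limma log2 fold change 0.28, SE 0.09, adjusted p = 0.0203), a call kept in 14 of 17 alternative settings and lost without the A library of 60–65 μm (adjusted p = 0.126) or the B library of 10–30 μm (adjusted p = 0.0558). No single step between neighbouring classes passed the limma test. Its level per kilobase rests on 3549 bases, the length that turned its values into whole reads, while the annotated exons together span 8781 bases. The length bears on its place beside Smad3. Whether reads in the remaining annotated bases changed with growth was not tested.

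The BMP SMADs Smad1 and Smad5 did not pass the test in any comparison. Smad1 was at 1.02 and 1.27 RPKM at 10–30 μm, 0.973 and 1.11 RPKM at 40–45 μm, 1.01 and 1.06 RPKM at 50–55 μm, 1.05 and 1.06 RPKM at 60–65 μm and 1.08 RPKM in GV oocytes. The classes overlapped from end to end, and the fold from 10–30 to 60–65 μm was 0.925 (95% interval 0.767–1.11, limma adjusted p = 0.421). The interval therefore leaves room for a modest change in either direction. Smad5 was at 1.94 and 2.09 RPKM at 10–30 μm, 2.14 and 2.1 RPKM at 40–45 μm, 2.56 and 2.59 RPKM at 50–55 μm, 2.17 and 2.40 RPKM at 60–65 μm and 1.71 RPKM in GV oocytes. Its highest class was 50–55 μm, both libraries of which lay above all other columns. Its fold from 10–30 to 60–65 μm was 1.12 (95% interval 0.958–1.31, limma adjusted p = 0.178), with a log2 fold change of 0.23 from 40–45 to 50–55 μm (limma adjusted p = 0.162) and of −0.20 from 50–55 to 60–65 μm (limma adjusted p = 0.428). Smad5 overlaps 3 small annotated RNAs on its own strand, Gm27301, Gm27834 and Gm27271, whose reads could be counted with it.

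Smad4, which both branches share, was at 6.67 and 9.17 RPKM at 10–30 μm, 8.35 and 9.73 RPKM at 40–45 μm, 9.54 and 10.1 RPKM at 50–55 μm, 10.8 and 9.57 RPKM at 60–65 μm and 10.9 RPKM in GV oocytes. Neighbouring classes overlapped, and the 2 libraries of 10–30 μm differed more from each other than the B library did from the lower one of 60–65 μm. From 10–30 to 60–65 μm Smad4 rose 1.28-fold (95% interval 1.03–1.60, limma log2 fold change 0.36, SE 0.14, adjusted p = 0.0498), just inside the threshold. The call held in only 5 of 17 alternative settings, and without the A library of 10–30 μm the adjusted p was 0.232 (limma log2 fold change 0.18). A processed pseudogene, AC132418.2, lies on the opposite strand within Smad4, and although the libraries were made to keep the strand, whether reads were counted by strand is not given in the sources used here.

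The inhibitory SMADs were barely transcribed, and Smad7 fell with growth. Smad7 was at 0.109 and 0.152 RPKM at 10–30 μm (49 and 109 reads), 0.0486 and 0.0695 RPKM at 40–45 μm (33 and 60 reads), 0.0245 and 0.0315 RPKM at 50–55 μm (13 and 22 reads), 0.0210 and 0.0171 RPKM at 60–65 μm (10 and 14 reads) and 0.010 RPKM in GV oocytes (9 reads). Each class lay below the one before it without overlap. Both genes were under the filter of the limma test, so they were tested by edgeR's quasi-likelihood test on whole reads recovered from the RPKM values, a test added after the data were seen. By that test Smad7 was 6.94-fold lower at 60–65 than at 10–30 μm (log2 fold change −2.80, adjusted p = 6.20e-05, called in 9 of 9 alternative settings). Without 1 library at a time the log2 fold change was −2.96 to −2.55, and by limma with no filter it was −0.92, on the log2(RPKM + 0.1) scale, whose pseudocount is close to the level of Smad7 itself. It was 2.04-fold lower at 40–45 than at 10–30 μm (adjusted p = 0.0246, 7 of 9 alternative settings), while the later steps did not pass (edgeR adjusted p = 0.060 and 0.531). Of all 16720 genes tested in this way, 28% were called lower at 60–65 than at 10–30 μm. The theca and stroma marker sum fell over the same interval as Smad7, and its part in the result was not tested.

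Smad6, the inhibitor usually linked to BMP signalling, was at 0.0314 and 0.0137 RPKM at 10–30 μm, 0.00208 and 0.0163 RPKM at 40–45 μm, 0.00531 and 0.0101 RPKM at 50–55 μm, 0.0208 and 0.00690 RPKM at 60–65 μm and 0.0126 RPKM in GV oocytes. These values stand for 1 to 10 reads a library, and the classes overlapped. The edgeR log2 fold change from 10–30 to 60–65 μm was −0.75 (adjusted p = 0.456), so no difference was detectable at this depth.

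Across the 7 members, 5 passed the filter of the limma test and 3 of those 5 were called from 10–30 to 60–65 μm, all of them higher, beside 63.4% of all 10518 genes tested and 30.8% called higher. From 10–30 to 40–45 μm 1 of 5 was called, beside 23.2% of all genes, from 40–45 to 50–55 μm 0 of 5 by limma and by edgeR (2 of the 5, Smad3 and Smad5, at an unadjusted limma p under 0.05), beside 9.21%, and from 50–55 to 60–65 μm 0 of 5, beside 0%. In the last step limma and edgeR called no gene of the table, and 1455 genes were at an unadjusted limma p under 0.05, none of them a member. With the replicate letter as a block, limma called 1 member (Smad3) and 1920 genes from 40–45 to 50–55 μm and 0 members and 235 genes in the last step, where a pseudocount of 1 RPKM gave 8 genes. A change over growth was therefore common in these oocytes, and the number of SMAD genes called was close to the background. The median log2 fold change was 0.28 (that of Smad2) over the 5 members and −0.01 over all genes tested, a difference that was not tested. Smad7, which is not among the 5, was called lower by edgeR. Both 60–65 μm libraries lay above both 10–30 μm libraries for 4 of the 5 (Smad2, Smad3, Smad4 and Smad5), beside 40.2% of all genes tested, and below both for none of the 5, beside 41.9%. All 5 were above the filter's level of 0.5 RPKM in every library, and of all genes tested 32.6% were called lower.

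With these changes the balance between the branches moved towards SMAD2 and SMAD3 transcripts. The granulosa and endothelial marker sums rose from 10–30 to 60–65 μm as well. Their part in this move, or in the calls of Smad2 and Smad4, was not tested. Smad2 and Smad3 together stood at 5.67 and 5.71 times Smad1 and Smad5 together at 10–30 μm, 6.51 and 6.86 times at 40–45 μm, 7.31 and 7.13 times at 50–55 μm, 9.46 and 8.03 times at 60–65 μm and 11.5 times in GV oocytes. The classes did not overlap, and the move came mainly from the numerator, since the sum of Smad1 and Smad5 stayed at 2.96–3.65 RPKM in growing oocytes while that of Smad2 and Smad3 went from 16.8 and 19.2 to 30.5 and 27.8 RPKM. The ratio of Smad3 to Smad2 was 0.576 and 0.741 at 10–30 μm, 0.761 and 0.868 at 40–45 μm, 1.00 and 1.07 at 50–55 μm, 1.2 and 1.17 at 60–65 μm and 1.45 in GV oocytes. It too was higher in each class than in the one before, without overlap, but the class where Smad3 passes Smad2 depends on the length used for Smad2. No test was made of these ratios. Receptor-regulated SMADs together stood at 2.46–3.27 times Smad4 in every column, a ratio that overlapped between 10–30 and 40–45 μm. Against Smad6 and Smad7 together they stood at 140 and 137 times at 10–30 μm and 805 and 1302 times at 60–65 μm, where the denominator rests on 17 and 18 reads. The 7 transcripts summed to 26.5 and 31.9 RPKM at 10–30 μm and to 44.5 and 40.9 RPKM at 60–65 μm, of which Smad3 was 23.1 and 25.6% at first and 37.4 and 36.7% at the end.

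**Figure D2:**
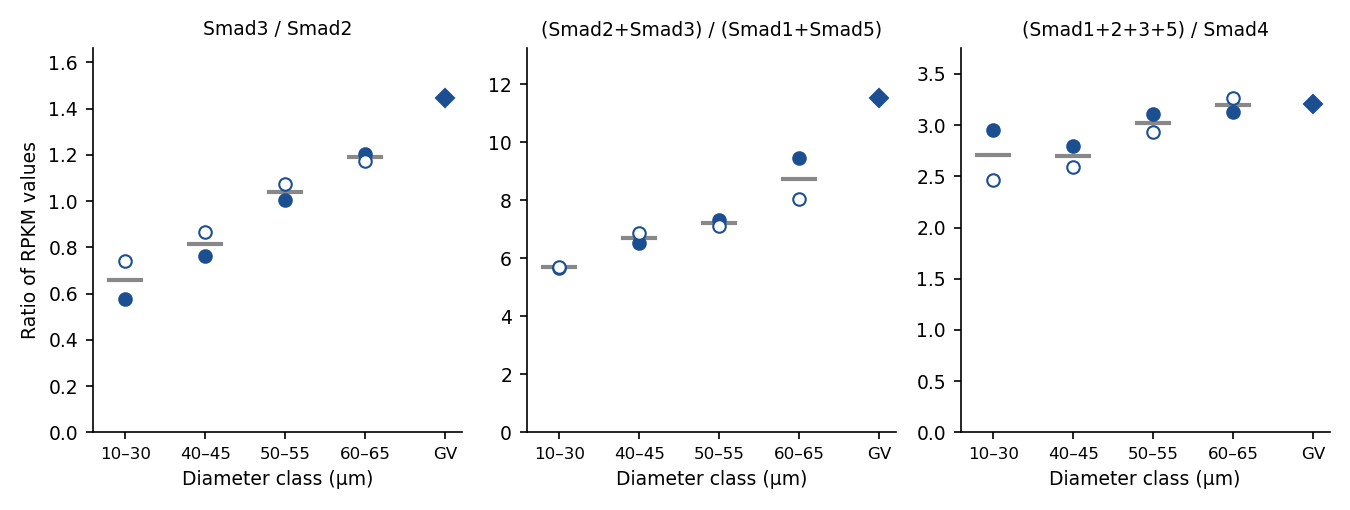
Ratios of summed RPKM per library, by diameter class (μm), with filled (A) and open (B) circles for libraries, grey bars for class means and a diamond for the GV column, on axes that start at 0. The ratio of the activin and TGF-β SMADs to the BMP SMADs goes from 5.67 and 5.71 at 10–30 μm to 11.5 in GV oocytes. With the length of 3549 bases used for Smad2, Smad3 passes Smad2 at 50–55 μm.

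The GV column had no replicate, so it was set beside the 60–65 μm libraries without a test. Smad3 was 1.2 times its 60–65 μm mean and above both libraries, and Smad5 was 0.746 times its mean and below both. Smad2, Smad1 and Smad4 were 0.986, 1.02 and 1.07 times their means. Only Smad7 was past 1.5-fold (1.90-fold lower), on 9 reads. Of all genes tested by limma 6.71% were past it in either direction and 4.67% downwards, but these had at least 0.5 RPKM and Smad7 did not. Of 603 genes under the filter that had 20 to 30 reads in the 60–65 μm libraries together, as Smad7 had, 49.8% were past it in either direction and 26.9% downwards, so that the value of Smad7 was common at its depth. Without the A or without the B library of 60–65 μm, 2 members were past 1.5-fold. The second was Smad6, in opposite directions. Its GV value of 0.0126 RPKM (8 reads) lay below the A library (0.0208 RPKM, 7 reads) and above the B library (0.00690 RPKM, 4 reads). The median gene stood at 0.975 times its 60–65 μm mean.

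The genes whose levels ran most like each member were found by the Pearson correlation of log2 RPKM over the 8 libraries of growing oocytes, among 8508 other genes of at least 1 RPKM on average (8509 for Smad6 and Smad7). Since these libraries share size class and depth, the values describe likeness only and carry no test. For Smad3 they were Apba2 (r = 0.999), Ctif (0.998) and Slain1 (0.997), and 1693 genes had r above 0.9. For Smad2 they were 1500003O03Rik, Abhd4 and Litaf (r = 0.994, 0.993 and 0.993, with 1501 genes above 0.9). For Smad4 they were Syvn1, Pcnx and 5730590G19Rik (r = 0.997, 0.996 and 0.993, with 671 genes above 0.9), each lower in the A than in the B library of 10–30 μm, as Smad4 was. Smad1 ran most like Pard3, Eif3f and Whsc1 (r = 0.987, 0.981 and 0.974, 95 genes above 0.9) and Smad5 most like B230219D22Rik, Slc5a8 and Rnf2 (r = 0.968, 0.967 and 0.939, 16 genes above 0.9). Smad7 ran most like Akt2, Tmem234 and Nek9 (r = 0.996, 0.995 and 0.995, 1286 genes above 0.9). Smad6, with its few reads, reached 0.901 with Trpt1 and 0.899 with both Eif2b2 and Vps33b. The shapes most often shared were therefore those of Smad3, Smad2 and Smad7. That of Smad6, with 1 gene above 0.9, and that of Smad5, with its peak at 50–55 μm, were the least shared.

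The SMADs receive their signals from ligands, of which Gdf9, Tgfb2, Tgfb3, Bmp15 and Bmp6 rose from 10–30 to 60–65 μm. A gene that reaches the filter of 0.5 RPKM only at one end of growth is favoured to be higher there. The counts of each list are therefore given over genes of at least 0.5 RPKM in a library of both 10–30 and 60–65 μm. Of all 9484 such genes 28.7% were called higher and 31.4% lower. Of 14 ligand genes listed for the activin and TGF-β branch 4 were tested, 3 of them at this level in both classes, and all 3 rose. The granulosa and endothelial marker sums moved in the same direction over this interval as the ligand, receptor and extracellular inhibitor genes that rose, and their part in these results was not tested. Gdf9, the oocyte's own growth factor for granulosa cells, was already at 419 and 449 RPKM at 10–30 μm and at 580 and 529 RPKM at 60–65 μm, a 1.27-fold rise (limma adjusted p = 0.0214, called in 12 of 17 alternative settings). Tgfb2 rose 1.66-fold from 8.16 to 13.7 RPKM (limma adjusted p = 0.00161) and Tgfb3 2.39-fold from 1.80 to 4.48 RPKM (limma adjusted p = 1.39e-05). Inha, the inhibin α subunit and also one of the granulosa markers, was at 0.136 and 0.20 RPKM at 10–30 μm, 0.542 and 0.528 RPKM at 60–65 μm and 0.168 RPKM in GV oocytes (limma adjusted p = 0.000599), and reached the filter only from 50–55 μm on. The activin subunits Inhba and Inhbb, singled out after their values were seen, were at or below 0.0307 and 0.0919 RPKM in growing oocytes.

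Of 15 BMP ligand genes 3 were tested, and the 2 that reached 0.5 RPKM in both classes, Bmp15 and Bmp6, rose. Bmp15, the oocyte-secreted partner of GDF9, was at 66.4 and 67.1 RPKM at 10–30 μm, 139 and 124 RPKM at 40–45 μm, 210 and 192 RPKM at 50–55 μm, 213 and 217 RPKM at 60–65 μm and 269 RPKM in GV oocytes. It rose 3.19-fold over growth (limma log2 fold change 1.67, SE 0.11, adjusted p = 1.15e-05), most of it before 50–55 μm. Bmp6, another BMP made by oocytes, rose 1.73-fold from 8.86 to 15.3 RPKM (limma adjusted p = 0.00250). Bmp5 went from 0.418 and 0.402 RPKM at 10–30 μm to 3.93 and 3.95 RPKM at 60–65 μm, a 7.86-fold rise on the log2(RPKM + 0.1) scale (limma adjusted p = 8.10e-06), and was at 6.33 RPKM in GV oocytes, with both 10–30 μm libraries under the filter's level. The other 12 BMP ligand genes of the list were under the filter.

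Some receptor genes of either branch were called and others were not. Of 9 genes listed for activin and TGF-β receptors 5 were tested, all 5 at 0.5 RPKM or more in both classes, and 2 rose and 1 fell, a share of calls no higher than the 63.4% of all genes tested. Acvr1b, the type I receptor ALK4 that phosphorylates SMAD2 and SMAD3, was at 5.06 and 6.47 RPKM at 10–30 μm and at 12.7 and 11.2 RPKM at 60–65 μm, a 2.04-fold rise (limma log2 fold change 1.03, SE 0.12, adjusted p = 0.000144). Tgfbr3, the co-receptor betaglycan, rose 3.05-fold from 0.889 to 2.95 RPKM (limma adjusted p = 1.83e-05). Tgfbr1, the type I TGF-β receptor ALK5, fell from 5.90 to 4.68 RPKM (limma log2 fold change −0.34, adjusted p = 0.0240, called in 13 of 17 alternative settings). Tgfbr2, the type II TGF-β receptor, was singled out after its values were seen, since it was at or below 0.0126 RPKM in growing oocytes and listed at 0 in GV oocytes. The activin type II receptors Acvr2a and Acvr2b were at 0.999–1.44 and 1.01–1.45 RPKM and did not pass (limma adjusted p = 0.135 and 0.674).

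Of 6 BMP receptor genes 3 were tested and 1 rose. Bmpr1b, a type I BMP receptor, rose 1.68-fold from 4.81 to 8.22 RPKM (limma adjusted p = 0.000410). Bmpr1a, the other main type I receptor, was at 4.17 and 4.63 RPKM at 10–30 μm and 5.02 and 5.29 RPKM at 60–65 μm (limma adjusted p = 0.0664). Bmpr2, the type II receptor that BMP15 uses, was at 1.89 and 2.99 RPKM and at 3.29 and 3.08 RPKM (limma adjusted p = 0.113). Among 13 extracellular inhibitors 5 were tested, but only 2 (Dand5 and Twsg1) reached 0.5 RPKM in both classes, and both rose. Sost, which did so only from 50–55 μm on, was at 0.0877 and 0.125 RPKM at 10–30 μm and 1.25 and 0.747 RPKM at 60–65 μm (limma log2 fold change 2.36, adjusted p = 5.20e-05). Bmper, likewise, went from 0.188 and 0.199 to 0.860 and 0.812 RPKM (limma adjusted p = 2.03e-05). Dand5 rose by a log2 fold change of 0.84 and Twsg1, a BMP binding protein, by 0.49 (limma adjusted p = 0.000785 and 0.00677).

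**Figure D3:**
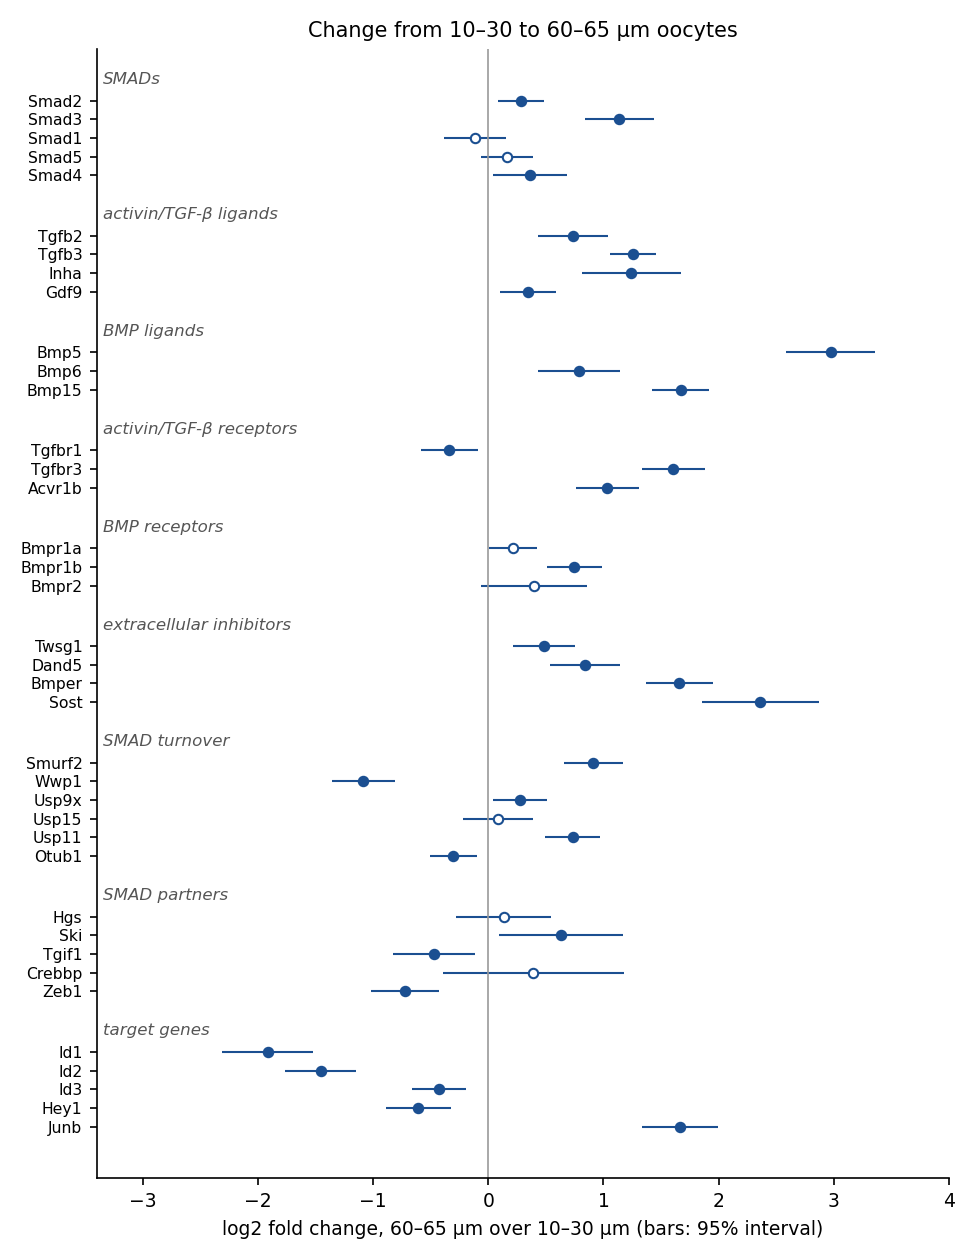
log2 fold change from 10–30 to 60–65 μm with its 95% interval, by limma, for the 5 tested SMAD genes and the named genes of the pathway lists, filled where the adjusted p was under 0.05 and open where not. The ligands and the target gene Junb (1.66) lie to the right of 0, and the target genes Id1 (−1.92) and Id2 (−1.46) to the left. Smad3 (1.14) is the furthest right of the SMADs. Inha, Bmp5, Bmper, Sost, Zeb1, Id1 and Junb reached 0.5 RPKM in no library at one end of growth. For these genes the filter itself favoured a direction.

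Genes that control SMAD turnover or act with SMADs in the nucleus were called in both directions, as genes in general were. Of 14 turnover genes all 14 were tested, 3 rose and 4 fell, beside 28.7 and 31.4% of all genes of this level, and the median log2 fold change was −0.01, beside −0.01 over all genes tested. Smurf2, a ubiquitin ligase for SMADs and their receptors, was at 8.34 and 7.93 RPKM at 10–30 μm and 15.4 and 15.6 RPKM at 60–65 μm (limma log2 fold change 0.91, adjusted p = 0.000185). Wwp1, a ligase of the same family, fell from 2.17 and 2.68 to 1.04 and 1.14 RPKM (limma log2 fold change −1.09, adjusted p = 0.000110). The deubiquitinases Usp9x and Usp15 were the highest of the list, at 34.9–49.3 and 35.5–47.2 RPKM in growing oocytes, and only Usp9x passed (limma log2 fold change 0.28, adjusted p = 0.0412, called in 9 of 17 alternative settings). Usp11 rose and Otub1 fell, by log2 fold changes of 0.73 and −0.30 (limma adjusted p = 0.000449 and 0.0174), Otub1 in 13 of 17 alternative settings. Of 20 partner genes 14 were tested, 13 of them at 0.5 RPKM or more in both classes, of which 4 rose and 2 fell. With Zeb1 the fallen were 3, and over the alternatives the counts ran from 0 to 7 risen and from 1 to 5 fallen. The corepressor Ski was the highest, at 11.6 and 20.3 RPKM at 10–30 μm and 24.4 and 23.6 RPKM at 60–65 μm (limma log2 fold change 0.63, adjusted p = 0.0432, called in 11 of 17 alternative settings). The repressors Tgif1 and Zeb1 fell by 0.47 and 0.72 on the log2 scale (limma adjusted p = 0.0273 and 0.00145), Tgif1 in 13 of 17 alternative settings. The adaptor gene Hgs and the coactivator gene Crebbp did not pass (limma adjusted p = 0.546 and 0.343).

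Of 19 genes listed as SMAD targets in other cells 7 were tested. Of these, 5 reached 0.5 RPKM in both classes, and 4 of the 5 fell (Id2, Id3, Hey1 and Tgif1) and 0 rose, beside 31.4 and 28.7%. Id1, the best-known BMP target, was at 1.25 and 0.949 RPKM at 10–30 μm, 0.327 and 0.293 RPKM at 40–45 μm, 0.198 and 0.262 RPKM at 50–55 μm, 0.213 and 0.219 RPKM at 60–65 μm and 0.191 RPKM in GV oocytes (limma log2 fold change −1.92, SE 0.17, adjusted p = 4.13e-05). Both 10–30 μm libraries thus lay well above all later ones and were the only ones to reach the filter's level. Id2 fell from 2.75 and 2.18 to 0.816 and 0.853 RPKM (limma log2 fold change −1.46, adjusted p = 4.76e-05) and Id3, the highest of the list, from 12 and 11.7 to 8.34 and 9.38 RPKM (log2 fold change −0.43, adjusted p = 0.00594), although at 40–45 μm Id3 stood higher, at 14.4 and 13.8 RPKM (log2 fold change 0.31, adjusted p = 0.0590). Hey1 and Tgif1 fell by 0.61 and 0.47 on the log2 scale (limma adjusted p = 0.00265 and 0.0273). Junb, which responds to many stimuli besides TGF-β, rose from 0.263 and 0.318 to 1.05 and 1.23 RPKM (limma log2 fold change 1.66, adjusted p = 3.49e-05), and was under 0.5 RPKM at 10–30 and 40–45 μm. Part of the drop of Id1, as of the inhibitory Smad7, lay between 10–30 and 40–45 μm, where the theca and stroma sum went from 4.0 and 2.83 to 1.77 and 0.711 RPKM, led by Col1a1, while Cyp17a1 was at 0 in both 10–30 μm libraries. The part of such cells in these results was not tested.

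Methylation at the gene starts was low for all 7 members. Within 1 kb of the start, over positions of at least 5 reads, the RRBS means lay between 0 and 2.83% in all 6 libraries. In the PBAT library they were 2.44% for Smad2, 4.74% for Smad3, 2.24% for Smad1, 3.26% for Smad5, 6.19% for Smad4, 3.16% for Smad6 and 1.94% for Smad7, beside a median of 3.47% for the starts of all genes of the RNA test. The starts of the abundant and of the barely detected SMADs could therefore not be set apart by their methylation.

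Gene bodies, taken from 2 kb downstream of the start to the end, differed widely. The body of Smad3 (chr9:63646767-63757994) had RRBS levels of 1.11 and 2.41% at 40–45 μm, 11.5 and 14.9% at 50–55 μm, then 27.6 and 27.9% at 60–65 μm, over 32 to 98 positions. The classes did not overlap, and the values ran below the medians of all tested genes from 50–55 μm on, which were 2.18 and 1.66%, then 14.7 and 17.3%, then 31.4 and 32.4%. Smad1 (chr8:79338395-79399518) was at 1.19 and 2.36%, then 8.92 and 24.0%, then 20.3 and 19.3%, over 16 to 30 positions, with the 50–55 μm libraries far apart. Smad6 (chr9:63953076-64022059) stayed at 1.44–6.40% and Smad7 at 0.144–1.21% in all 6 libraries. For Smad2, Smad4 and Smad5 RRBS read 0 to 2 body positions a library, too few for a mean. With 2 libraries a class no test of these levels was made.

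**Figure D4:**
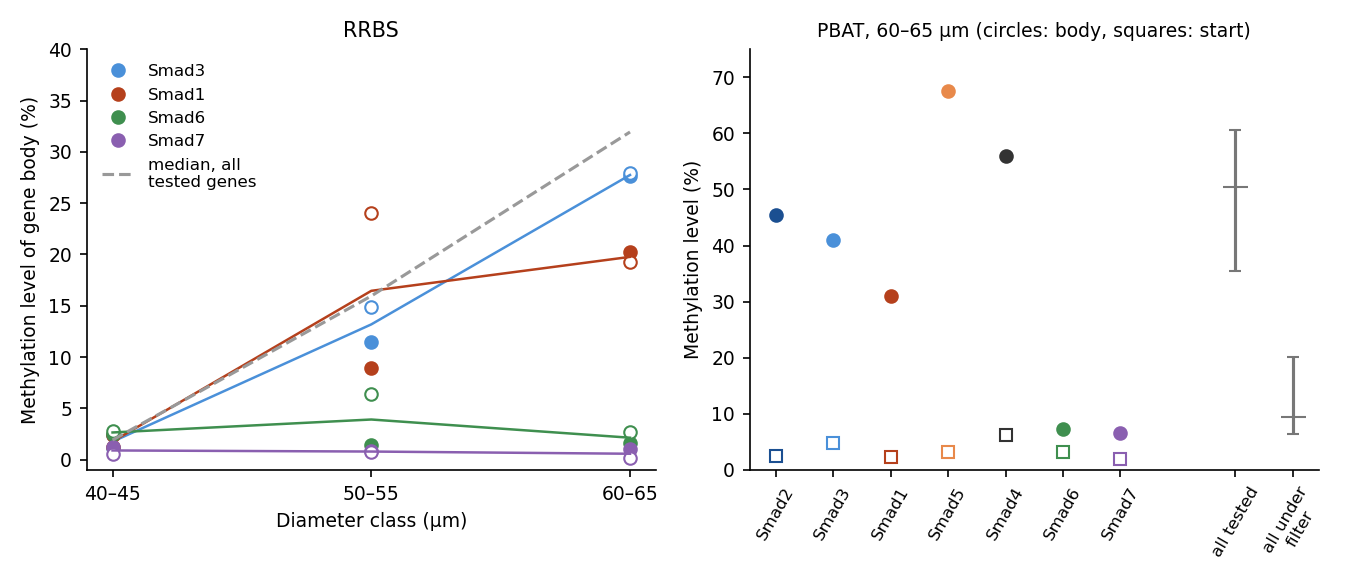
RRBS methylation level of gene bodies (%) by diameter class (μm), a point for each library, with the median of all tested genes dashed (left), and PBAT methylation level (%) of bodies and starts of the 7 genes at 60–65 μm beside the medians of tested genes (50.4% for bodies) and of genes under the RNA filter (9.37%, right). Smad6 and Smad7 bodies lie at 7.38 and 6.55%, the other 5 between 30.9 and 67.5%.

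At positions read in all 6 RRBS libraries, Smad3 had 25 such positions, 5 in exons and 20 in introns, with means of 1.18 and 3.33%, then 9.28 and 10.5%, then 22.0 and 22.7%. Of these, 16 were higher in both 60–65 μm than in both 40–45 μm libraries, 3 had reached 50% and 11 were still at or below 10%, so that methylation was uneven within the gene. Smad1 had 13 shared positions, of which 5 were higher at 60–65 μm in this sense. Their means were 0.798 and 3.63%, then 3.30 and 12.8%, then 9.01 and 9.79%, which is below the body level at 60–65 μm given above, and the highest library was the B library of 50–55 μm. Smad6 had 24, of which 2 were, and Smad7 had 14, of which 0 were. At 60–65 μm 23 of the 24 Smad6 positions and all 14 Smad7 positions were at or below 10%. Positions of one gene share libraries and neighbours and are not replicates.

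To show the DNA behind these levels, the pair of shared intronic CpG sites with the highest mean at 60–65 μm was taken from Smad3, Smad1 and Smad6, among 6, 4 and 3 pairs at most 50 bases apart. Each is printed with 40 bases on either side (GRCm38.p6, minus strand), and the measured CpG sites are in capitals. The pairs were thus chosen for their values. They lie in introns, 70.5, 44.3 and 38.8 kb from the respective starts, at chr9:63687478-63687573 for Smad3, chr8:79355133-79355217 for Smad1 and chr9:63983208-63983312 for Smad6.
Smad3 intron: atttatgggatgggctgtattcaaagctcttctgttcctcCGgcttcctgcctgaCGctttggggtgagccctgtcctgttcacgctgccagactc
Smad1 intron: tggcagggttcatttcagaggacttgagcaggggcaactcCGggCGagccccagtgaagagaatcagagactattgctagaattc
Smad6 intron: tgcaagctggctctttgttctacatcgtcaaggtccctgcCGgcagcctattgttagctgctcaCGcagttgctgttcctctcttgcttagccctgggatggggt
The Smad3 site at position 63687518 was methylated in 1.45 and 0% of calls at 40–45 μm, 17.5 and 21.2% at 50–55 μm, then 74.2 and 73.2% at 60–65 μm, on 26 to 69 calls a library. Its neighbour at 63687533 went from 0 and 0% through 20.6 and 15.2% to 71.0 and 51.2%. In the Smad1 pair, the site at 79355173 went from 0 and 4.87% through 10.2 and 29.9% to 15.4 and 31.1%, and its neighbour at 79355177 from 0 and 4.85% through 5.08 and 10.3% to 9.23 and 11.6%, on 59 to 309 calls. The Smad6 sites stayed at or below 7.84% in every library, on 36 to 61 calls. Of the 3 introns, that of Smad3 alone passed 50% at these sites.

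The PBAT library, which reads CpG-poor stretches too, gave body levels for all 7 members at 60–65 μm. They were 67.5% for Smad5 (chr13:56703010-56742377, 72 positions of at least 5 reads), 56.0% for Smad4 (137), 45.5% for Smad2 (86), 40.9% for Smad3 (679), 30.9% for Smad1 (257), 7.38% for Smad6 (435) and 6.55% for Smad7 (197). The 5 transcribed members thus stood apart from the 2 inhibitory ones. Bodies of all genes of the RNA test had a median of 50.4% (quartiles 35.5 and 60.5%, 8922 genes), and those of genes under the filter a median of 9.37% (quartiles 6.35 and 20.1%, 8666 genes). Smad6 and Smad7 lay between the quartiles of genes under the filter, and among the genes of the RNA test Smad5 stood at percentile 89.6, Smad4 at 64.0, Smad2 at 40.1 and Smad3 at 32.5, with Smad1 below them. Body methylation did not follow RNA level among the transcribed members, since Smad5, at 2.29 RPKM, was the most methylated and Smad3, at 15.8 RPKM, was below all of them but Smad1. Over all genes, the median body level was 8.35% under 0.1 RPKM, 49.4% at 0.5–2 RPKM, 53.6% at 2–5 RPKM, 51.7% at 5–20 RPKM and 40.6% above that.

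**Figure D5:**
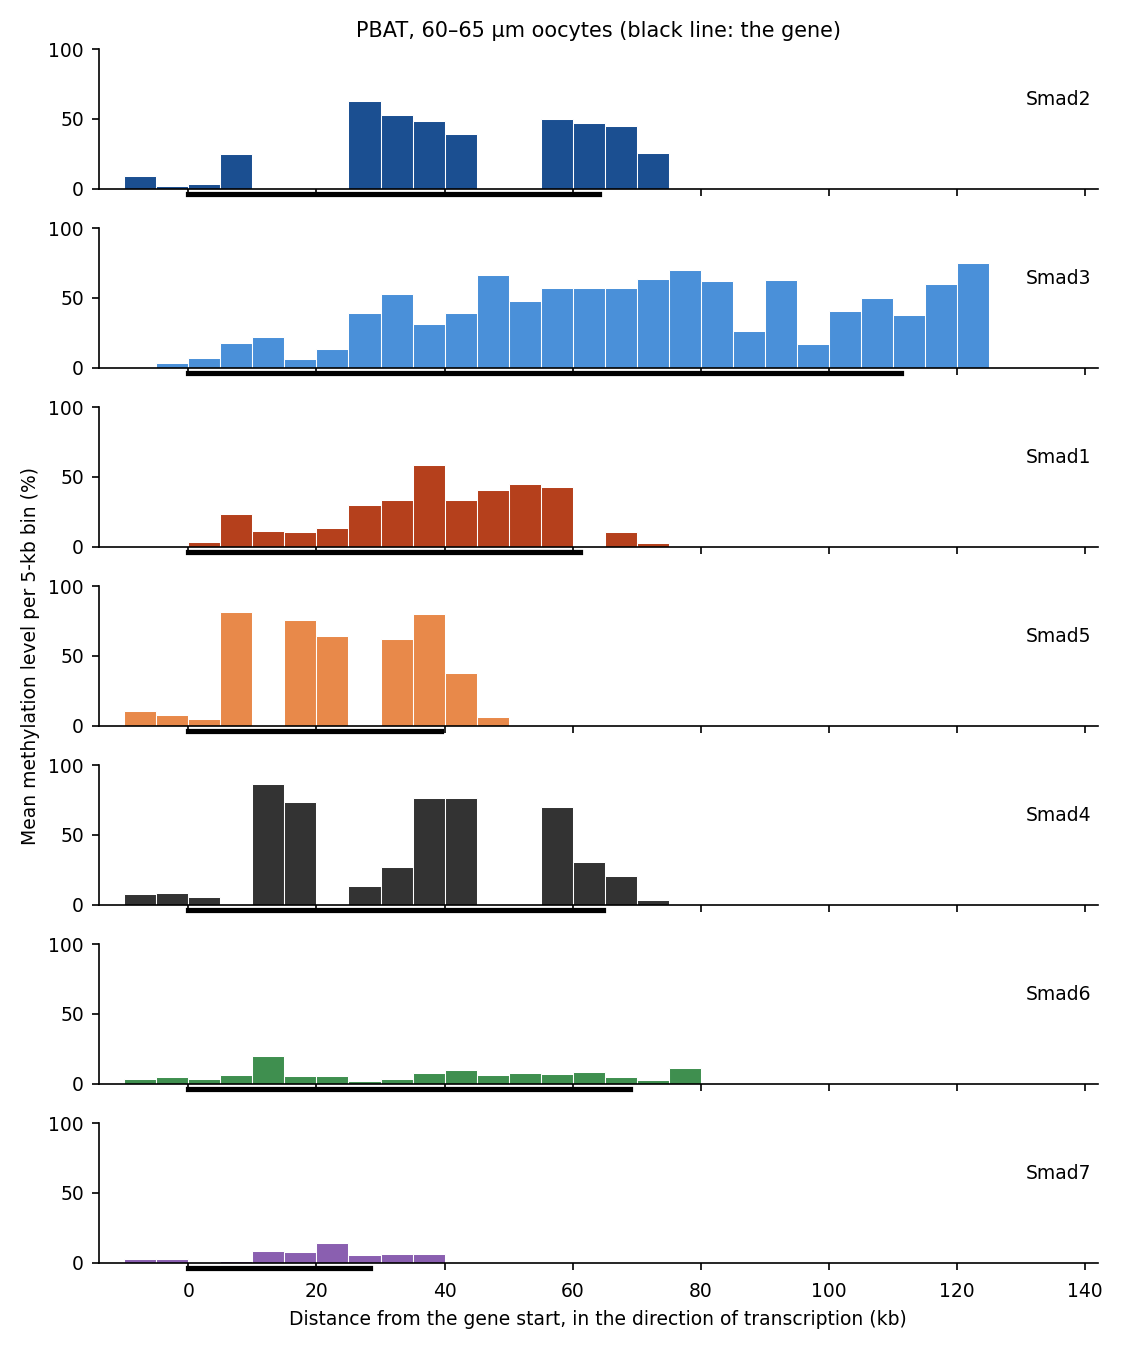
Mean PBAT methylation level (%) in bins of 5 kb along each of the 7 genes at 60–65 μm, by distance from the gene start in the direction of transcription (kb), with the gene as a black line and bins of under 5 positions left blank. Bins of Smad3 stay at or below 22.2% up to 25 kb and then reach 70.4% within the gene, while no Smad6 bin passes 19.7% and no Smad7 bin 14%.

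Within Smad3 the level depended on the distance from the start. The bin of 0–5 kb was at 6.67%, the bins from 5 to 25 kb lay between 6.09 and 22.2%, and from 25 to 85 kb all bins lay between 31.4 and 70.4%. Further on, the bins of 85–90 and 95–100 kb stood at 26.2 and 17.0% on 19 and 35 positions, with 62.5% between them. The stretch of 70–75 kb, which holds the intronic pair printed above, was at 63.3%. In Smad6 every bin from 10 kb before the start to 80 kb after it was at or below 19.7%, and in Smad7 every bin to 40 kb was at or below 14%.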

How the data were processed

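Expression was deposited as a table of RPKM for reference genes with 9 columns (8 libraries of growing oocytes and 1 of GV oocytes). Per the labels and methods, the authors trimmed reads with Trim Galore 0.2.8 and aligned them with TopHat2 2.0.9 to GRCm38. Whether Cufflinks or SeqMonk made the table is not given in the sources used here. RRBS and PBAT reads were aligned with Bismark 0.14.0 and 0.10.0, and the PBAT library was deduplicated. No such step is stated for RRBS, so several calls may come from 1 molecule. For each cytosine the authors deposited the percent methylated together with the counts of methylated and unmethylated calls.

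RPKM values were tested on log2(RPKM + 0.1) with limma 3.58.1 after trimmed-mean scaling, in 1 fit of 8 libraries with a mean per class, over the 10518 genes of at least 0.5 RPKM in at least 2 libraries, with Benjamini-Hochberg adjustment over all of them, two-sided, and a threshold of 0.05. A fold change understates that of low genes on this scale. RPKM values were also turned back into whole reads, which succeeded for 99.99% of the 10518 genes, and those of at least 10 reads (16720 genes) were tested with edgeR 4.0.16, an alternative chosen after the data were seen. It called 6631 of the genes of the limma test from 10–30 to 60–65 μm, where limma called 6669. Recovered totals may count both mates or spliced parts of a read, and intervals cover counting error only. Both tests were also run on simulated data with known changes, with a fixed spread for edgeR. Those changes were all larger than the changes of Smad2 and Smad4, so the runs do not bear on changes that small.

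Methylation means used positions of at least 5 reads and were not tested. RRBS libraries held 804044 to 1793142 positions (30000113 to 57319823 calls), and the PBAT library 29487581 positions (99039028 calls).

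The members and the pathway and marker lists were chosen with earlier results of these data known. Named genes were all members and Smad9, from each list the 3 genes of highest mean level and up to 3 called genes of largest change, and for each member the 3 genes most like it. No replicate pairing is given beyond shared letters. Their deviations from the class means correlated between −0.225 and 0.670, so the letters were not taken to pair samples. Alternatives changed the pseudocount, filter, scaling, block, variance trend, tool, read minimum and window, or left out libraries. Marker gene Hbb-bt was not in the table used here.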

Additional observations from a re-analysis of the deposited data

How the results depend on the processing

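No called member or listed gene turned its direction under an alternative. Of member log2 fold changes that were not called (by limma, and by edgeR for Smad6 and Smad7), 13 values under alternatives had the other sign, none past the threshold: from 50–55 to 60–65 μm Smad1 without scaling (0.025) and Smad4 by edgeR on genes of at least 10 reads (−0.0018), and others when libraries were left out. By these same tests the ranges were −0.17 to 0.038 for Smad1 from 10–30 to 40–45 μm, −0.11 to 0.023 for Smad1, −0.00032 to 0.17 for Smad4 and −1.04 to 1.73 for Smad6 from 40–45 to 50–55 μm, and −0.019 to 0.080 for Smad2, −0.031 to 0.026 for Smad1, −0.058 to 0.10 for Smad4 and −0.24 to 1.29 for Smad6 in the last step. By edgeR with libraries left out, further uncalled values of Smad1, Smad2 and Smad4 changed sign, such as Smad1 over growth (0.028 without the B library of 10–30 μm). Of the listed genes 8 that were not called changed sign, Hgs, Crebbp, Usp15 and Acvr2b among them. The call of Smad3 from 10–30 to 60–65 μm and that of Smad7 by edgeR held in every alternative run (17 and 9). Over growth, 3 members were called and 1 with only the 2 classes compared in the fit (Smad3), and 1 to 2 when libraries were left out in turn, the lowest without the A library of 60–65 μm. From 10–30 to 40–45 μm 1 member was called, 0 with a filter of 2 RPKM, without scaling or with only the 2 classes compared, 2 without a filter or by edgeR on genes of at least 10 reads, and 0 to 2 when libraries were left out. From 40–45 to 50–55 μm the count was 0, and 0 to 1 when libraries were left out (Smad3 without either library of 10–30 μm). Over all genes, 2438 were called from 10–30 to 40–45 μm, 1573 with the filter of 2 RPKM, 928 with only the 2 classes compared and 870 to 2907 when libraries were left out, the lowest without the A library of 40–45 μm. The 969 calls from 40–45 to 50–55 μm became 577 without a filter, 570 with the filter of 2 RPKM and 0 to 1640 when libraries were left out, with 0 without the B library of 40–45 μm or the A library of 50–55 μm. The count of 0 in the last step became 8 with a pseudocount of 1. With the replicate letter as a block, 1 member (Smad3) and 1920 genes were called from 40–45 to 50–55 μm and 235 genes in the last step, and no other count of members or of all genes moved by over 1.5 times. The letters only share a name, since the deviations of same-lettered libraries correlated between −0.225 and 0.670. The count of members past 1.5-fold in GV oocytes, 1, became 2 when either 60–65 μm library was left out, with Smad6 added in opposite directions. The gain of the Smad3 body by RRBS from 40–45 to 60–65 μm, 26.0 percentage points, was 20.1 at positions read in all libraries. PBAT body levels at a minimum of 1 or 10 reads stayed on the same side of 20% for each member, a line that falls between 7.38 and 30.9%. Their order was less stable. At a minimum of 10 reads Smad2 (54.3%, 7 positions) stood above Smad4 (50.7%, 18 positions). The causes were not tested. Of 272 list counts under alternatives, 245 stayed within 1.5-fold. The rest were counts of partner genes (0 to 7 higher, 1 to 5 lower), turnover genes (1 to 4 higher, 2 to 5 lower), targets (0 to 1 higher, 3 to 9 lower), inhibitors (1 to 4 higher), BMP receptors (1 to 3 higher) and activin and TGF-β receptors (0 to 1 lower). Few reads limit the RNA levels of Smad6 and Smad7, and few body positions limit RRBS of Smad2, Smad4 and Smad5. No test of methylation was run.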
